A study of Mus musculus with 60 samples.

Results

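The 10 genes described here encode enzymes that move amino groups and one-carbon units: the branched-chain aminotransferases Bcat1 and Bcat2, the serine synthesis enzymes Phgdh, Psat1 and Psph, the serine hydroxymethyltransferases Shmt1 and Shmt2, the folate enzymes Mthfd1 and Mthfd2, and the asparagine synthetase Asns. They were taken as a list of named genes, not by a cutoff on their values, but with earlier results of these data known. The list made up 10 of the 47729 mouse genes in the count table. All 10 were among the 8814 genes that reached 10 CPM in either group of cells, CPM being counts scaled to the library total. Bcat1 is also a gene that the study named from these same cells, so its direction here is not independent evidence.

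The cells were PyMT-Bo1, a mouse mammary tumor line that homes to bone. All carried the luciferase, H2B-mApple and Thy1.1 transgenes and were stained with DiD, a membrane dye that is diluted at each division. After intracardiac injection into wild-type C57BL6 mice, tumor cells were enriched with Thy1.1 beads from the femurs and tibias of 5 mice, pooled, and sorted as single CD45-, DAPI- cells. Of the sorted cells, 32 DiD+ (dormant, high dye) and 28 DiD- (proliferative, low dye) cells passed the study's quality control and are those used here. No mouse is named for a cell, so each group was 1 sample, cells were not replicates, and the groups were compared without a test. The differences below therefore have no replicate check, and the spread given is that between cells.

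Serine is made from the glycolytic intermediate 3-phosphoglycerate by Phgdh, Psat1 and Psph in turn, and the serine hydroxymethyltransferases split it into glycine and a one-carbon unit carried on folate. Shmt2 and Mthfd2 work in mitochondria and Shmt1 and Mthfd1 in the cytosol, and the one-carbon units feed purine and thymidylate synthesis in dividing cells. Bcat1 in the cytosol and Bcat2 in mitochondria pass the amino group of leucine, isoleucine and valine to α-ketoglutarate, giving glutamate, the amino donor that Psat1 uses. Asns makes asparagine from aspartate and glutamine, and Asns, Phgdh, Psat1, Shmt2 and Mthfd2 are well-known targets of the transcription factor ATF4 in amino acid shortage.

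Counts on mouse genes ranged from 2276795 to 7794224 in the DiD+ cells and from 2624416 to 6199117 in the DiD- cells, so that 3 counts over a whole group were 0.0205 CPM in DiD+ against 0.0251 CPM in DiD- cells. The epithelial marker list, carried by the keratins Krt8 and Krt18, summed to 266.2 to 6342.0 CPM per DiD+ cell (median 2201) and 356.4 to 12020.3 CPM per DiD- cell (median 4627), whereas Krt7, Krt19 and Epcam were at 0 in both groups. Krt8 (-0.89) and Krt18 (-1.115) had log2 ratios between the groups, DiD+ over DiD-, as low as those of several of the enzymes below, and the part of this difference in their ratios was not tested. The 13 macrophage or monocyte markers were present at 10 counts or more for at least 7 of the 13 in 6 DiD+ cells (19, 21, 24, 30, 37 and 88, by their label numbers) and in 1 DiD- cell (84), with summed levels of 0 to 18434.6 CPM over the DiD+ cells and 0 to 1573.5 CPM over the DiD- cells. The 7 erythroid markers reached 174094.2 CPM in a DiD+ and 46536.1 CPM in a DiD- cell, with medians of 0.0912 and 0 CPM. The 11 mesenchymal stromal markers summed to 7.7 to 4226.2 CPM per DiD+ cell (median 195.4) and 0.381 to 497.3 CPM per DiD- cell (median 165.5). The label numbers fall in runs of 17 to 46 and 63 to 92, and values within each run are given beside the results, although the labels do not say what the runs stand for.

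Promoter sequences, from RefSeq on GRCm38.p6 (250 bases before to 50 after each annotated start), were found for all 10 genes and searched on both strands for 5 short motifs. These were TGATGNAA (the C/EBP-ATF composite element), TGACNNNGC (the antioxidant response element core), CACGTG (the E-box bound by Myc) and the E2F motifs TTTCCCGC and TTTGGCGC. Asns was the 1 gene of the 10 with TGATGNAA, which stood in 3.97% of all 32851 promoters, and the match began 23 bases before the RefSeq start. GENCODE places the start of Asns further upstream, so that the match lies inside the gene as GENCODE annotates it. TGACNNNGC stood in 12.4% of all promoters and in those of Phgdh, Psph and Asns. No other match was found in these windows, Bcat1 included, where CACGTG stood in 7.15%, TTTCCCGC in 1.07% and TTTGGCGC in 0.514% of all promoters. The stretches below show the Asns and Phgdh matches in capitals, at chr6:7693214-7693243 and chr3:98340004-98340033. Bcat1, the gene with the largest difference, had 2 promoters in RefSeq. The 200 bases shown for it, at chr6:145076208-145076407, run from 250 to 51 bases before the start of promoter 1. All 3 stretches lie on the minus strand and are written 5′ to 3′ as transcribed.
Asns: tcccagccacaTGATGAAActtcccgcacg
Phgdh: tgcccggggagGCGGAGTCAgcagagttta
Bcat1: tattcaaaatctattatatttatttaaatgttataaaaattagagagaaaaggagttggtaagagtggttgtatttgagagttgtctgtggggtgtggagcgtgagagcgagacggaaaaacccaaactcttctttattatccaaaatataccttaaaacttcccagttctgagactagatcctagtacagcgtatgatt
The Phgdh match is on the opposite strand, where it reads TGACTCCGC.

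The question of the comparison is which of these enzymes differ between dormant and proliferative tumor cells in bone. For each gene the counts of all cells of a group were added up, scaled to CPM, and compared as the log2 ratio of DiD+ over DiD- with 1 CPM added to both. Of the 10 genes, 8 were lower in DiD+ cells and 2 were higher, where 50.4% of the 8814 genes were lower and 49.6% higher, and the median log2 ratio was -0.49 beside -0.00 over all those genes. Bcat1 (-1.35) and Shmt1 (-1.15) had a log2 ratio of -1 or lower, as did 3.18% of the genes, and none of the 10 had a log2 ratio of 1 or higher, as did 6.38%. Psat1 (-0.91), Shmt2 (-0.81) and Mthfd1 (-0.72) followed, Mthfd2 (-0.26), Phgdh (-0.21) and Asns (-0.17) were nearer to 0, and Psph (0.21) and Bcat2 (0.62) were higher in DiD+ cells. Without Bcat1 the median of the other genes was -0.26.

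**Figure D1:**
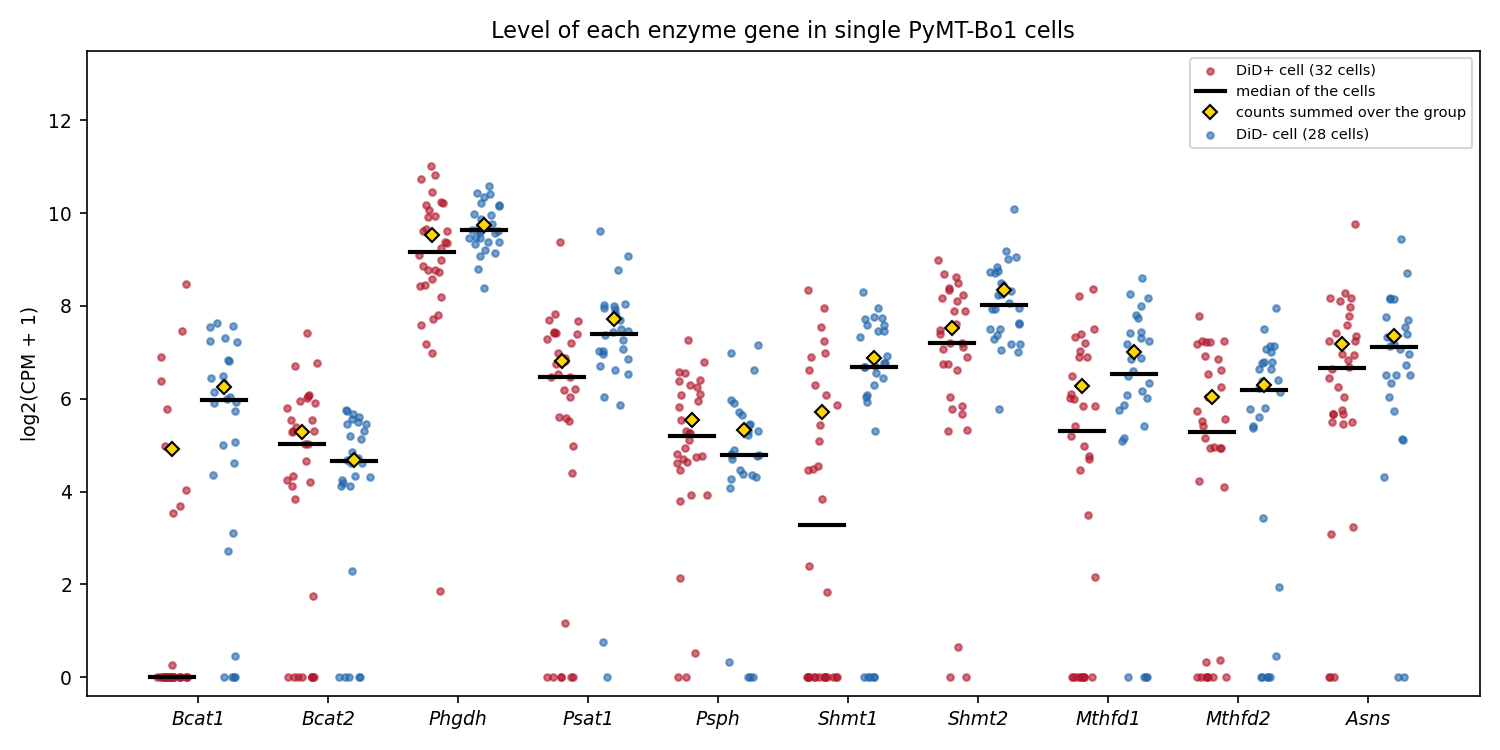
Level of each of the 10 genes in single cells, as log2(CPM + 1) on the vertical axis, with 32 DiD+ cells in red and 28 DiD- cells in blue, the bar at the median of the cells and the diamond at the CPM of the summed counts. Bcat1 stood at 0 in 22 of the DiD+ cells, and the cells of both groups overlapped for every gene.

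Bcat1 (ENSMUSG00000030268, GRCm38 chr6:144993835-145076184, minus strand), the cytosolic branched-chain aminotransferase, was the gene that differed most. In the 32 DiD+ cells it ranged from 0 to 353.8 CPM with a median of 0, and in the 28 DiD- cells from 0 to 196.3 CPM with a median of 61.5. The groups overlapped, since the highest cell of all was DiD+ and 4 DiD- cells were at 0. Summed, Bcat1 stood at 29.04 CPM (exact 95% Poisson interval 28.2 to 29.9) in the DiD+ group against 75.6 CPM (74 to 77.1) in the DiD- group. The log2 ratio was -1.35, with -1.40 to -1.30 from counting error, and 108 of the 8814 genes, Bcat1 included, had a ratio as low or lower. The reads carry no molecular identifiers, so such intervals cover counting error only. The binomial intervals given for shares of cells treat cells as independent draws, although they came from pooled mice.

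The share of cells with Bcat1 counts set it further apart. Counts were found in 10 of 32 DiD+ cells (31.2%, exact binomial interval 16.1 to 50.01%) and in 24 of 28 DiD- cells (85.7%, 67.3 to 96.0%), a difference of -54.5 percentage points. No other of the 8814 genes had a difference in share that low. The numbers of cells did not alter after each cell was thinned to 2200000 counts, and with 10 counts as the minimum they were 9 and 23.

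The 10 DiD+ cells with Bcat1 spanned a wide range. Cell 18 had 353.8 CPM, cell 24 had 175.0, cell 19 had 118.3, cell 42 had 82.9 and cell 36 had 54.1 CPM. Cell 64 had 30.8, cell 21 had 15.4, cell 67 had 11.9 and cell 87 had 10.6 CPM, and cell 17 had a single count (0.195 CPM). Cell 18 alone held 40.5% of the Bcat1 counts of the group, and the top 3 cells held 75.9%, against 32.0% for the top 3 of the DiD- cells. Without cell 18 the log2 ratio was -2.02. Cells 19, 21 and 24 also carried macrophage markers, and without the 7 macrophage-marker cells the ratio was -1.71.

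Bcat1 differed between the runs of label numbers too. Among cells 17 to 46 it stood at 46.8 CPM in the DiD+ cells (7 of 18 with a count) and 116.5 CPM in the DiD- cells (12 of 12), a log2 ratio of -1.30. In cells 63 to 92 it stood at 3.82 CPM (3 of 14) and 41.6 CPM (12 of 16), a log2 ratio of -3.15. Bcat1 was lower in DiD+ than in DiD- cells within each run, and lower in cells 63 to 92 than in cells 17 to 46 within each group.

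Bcat2 (ENSMUSG00000030826, chr7:45570153-45589711, plus strand), the mitochondrial partner of Bcat1, had the opposite sign. It ranged from 0 to 170.9 CPM with a median of 31.6 in DiD+ cells and from 0 to 52.9 CPM with a median of 24.1 in DiD- cells, with counts in 24 of 32 and 23 of 28 cells. The summed levels were 38.2 and 24.5 CPM (log2 ratio 0.62). The 2 highest DiD+ cells, 19 (170.9 CPM) and 30 (108.5 CPM), were both macrophage-marker cells, and the ratio was 0.20 without the 7 such cells and 0.41 without cell 19 alone. It was 0.82 in cells 17 to 46 and 0.08 in cells 63 to 92. Bcat2 shared reads with another feature of the table, ENSMUSG00000109075, to which the reference gives no symbol. The fractional counts of the 2 features added up to whole numbers within 0.02 in all 43 cells where both were fractional, and with those counts added the levels were 64.8 and 42 CPM (0.61).

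Per kb of exon, Bcat2 stood at 9.79 CPM in DiD+ and 6.28 in DiD- cells, and Bcat1 at 3.12 and 8.11. Bcat2 stood above Bcat1 in the DiD+ cells of both runs. In DiD- cells the order was not settled, since Bcat1 was above Bcat2 in cells 17 to 46 (12.5 and 6.885 CPM per kb) but below it in cells 63 to 92 (4.47 and 5.78), and below it in all DiD- cells once the shared counts were added to Bcat2 (10.8 CPM per kb), a check chosen after seeing the data. In both groups the cells of the 2 genes overlapped.

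Phgdh (ENSMUSG00000053398, chr3:98313170-98339990, minus strand), which takes 3-phosphoglycerate into serine synthesis, had the highest level of the 10 genes per kb of exon, at 296.7 CPM in DiD+ and 344.4 in DiD- cells. It had counts in all 60 cells. In DiD+ cells it ranged from 2.61 to 2062.3 CPM with a median of 574.8, and in DiD- cells from 332.0 to 1537.1 CPM with a median of 789.8. The lowest DiD+ value came from cell 41, and the next from cell 68, at 124.8 CPM. Cell 41 also held 64.8% of the DiD+ counts of the stromal marker Col3a1. Of the other stromal markers, Pdgfrb also had its top DiD+ cell in cell 41 (22.2% of counts). Cxcl12, Col1a1, Col1a2, Pdgfra, Kitl and Dcn had theirs in other cells. Summed over cells, Phgdh had 738 and 856 CPM (log2 ratio -0.21), and 31.2% of genes had a ratio as low or lower, so the groups differed little beside the spread between cells. The DiD+ cells were the more spread out, with an SD over cells of 518 CPM against 300.3 CPM. The pseudogene Gm7901, with which Phgdh shared reads, held 1017 counts beside 210063.

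Psat1 (ENSMUSG00000024640, chr19:15904678-15947337, minus strand), which passes the amino group of glutamate to the serine precursor, differed more than Phgdh. It ranged from 0 to 665.6 CPM with a median of 87.9 in DiD+ cells and from 0 to 783.9 CPM with a median of 168 in DiD- cells, and had counts in 26 of 32 and 27 of 28 cells. Summed over cells, Psat1 had 111 and 209 CPM, a log2 ratio of -0.91, with 4.06% of genes as low or lower. The extreme cells were 18 among DiD+ and 32 among DiD- cells, and the ratio was -1.18 without cell 18 and -0.71 without cell 32. It was -1.20 in cells 17 to 46 and -0.61 in cells 63 to 92.

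Psph (ENSMUSG00000029446, chr5:129765558-129787449, minus strand), the phosphatase that completes serine synthesis, was higher in DiD+ cells by a small margin. It ranged from 0 to 152.7 CPM with a median of 35.4 in DiD+ cells and from 0 to 142 CPM with a median of 26.8 in DiD- cells, and the summed levels were 45.2 and 39.02 CPM (log2 ratio 0.21). Its exons overlap those of Cct6a on the opposite strand, and the fractional counts of both added up to whole numbers in all 34 cells where both were fractional. Cct6a held 123717 counts beside 11269 for Psph, and how RSEM split the shared reads cannot be checked here, so the level of Psph is uncertain.

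Shmt1 (ENSMUSG00000020534, chr11:60788104-60811718, minus strand), the cytosolic serine hydroxymethyltransferase, came second to Bcat1. In DiD+ cells it ranged from 0 to 321.8 CPM with a median of 8.75, and in DiD- cells from 0 to 314.9 CPM with a median of 102. Counts were found in 18 of 32 DiD+ cells (56.2%, 37.7 to 73.6%) and in 23 of 28 DiD- cells (82.1%, 63.1 to 93.9%). Its summed levels were 51.9 and 116 CPM, a log2 ratio of -1.15, and 2.05% of genes were as low or lower. The top cells of the 2 groups were alike, and the groups differed in the number of cells at 0 and in the middle of the range. The ratio was -0.93 without the macrophage-marker cells, -1.60 in cells 17 to 46 and -0.62 in cells 63 to 92.

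Shmt2 (ENSMUSG00000025403, chr10:127517123-127522444, minus strand), its mitochondrial counterpart, was found in nearly every cell, 30 of 32 and 28 of 28. It ranged from 0 to 503.8 CPM with a median of 146 in DiD+ cells and from 54.1 to 1093.9 CPM with a median of 257 in DiD- cells. The summed levels were 184 and 324 CPM, a log2 ratio of -0.81, with 5.54% of genes as low or lower. The direction was the same in cells 17 to 46 and in cells 63 to 92. Per kb of exon, Shmt2 stood above Shmt1 in both groups, at 59.2 against 13.4 CPM in DiD+ and 104 against 29.9 CPM in DiD- cells.

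Mthfd1 (ENSMUSG00000021048, chr12:76255298-76319803, plus strand), the cytosolic enzyme that interconverts the folate-bound one-carbon units, ranged from 0 to 328.3 CPM with a median of 38.8 in DiD+ cells and from 0 to 388.6 CPM with a median of 91.9 in DiD- cells. The summed levels were 76.3 and 127 CPM, a log2 ratio of -0.72. The difference was seen in 1 run of label numbers, with a ratio of -1.32 in cells 17 to 46 and -0.02 in cells 63 to 92, where the levels were 87.96 and 89.1 CPM. Cell 82 held 22.9% of the DiD+ counts, and without it the ratio was -1.02.

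Mthfd2 (ENSMUSG00000005667, chr6:83305691-83325908, minus strand), the mitochondrial enzyme of the same step, ranged from 0 to 219.3 CPM with a median of 38.01 in DiD+ cells and from 0 to 246.8 CPM with a median of 72.1 in DiD- cells. Together the cells gave 64.5 and 77.5 CPM, a log2 ratio of -0.26, and 27.5% of genes were as low or lower. The ratio was -0.54 in cells 17 to 46 and -0.02 in cells 63 to 92.

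Asns (ENSMUSG00000029752, chr6:7675169-7693254, minus strand), whose promoter holds the TGATGAAA stretch shown above, ranged from 0 to 870.8 CPM with a median of 101 in DiD+ cells and from 0 to 697.5 CPM with a median of 137 in DiD- cells. The groups summed to 144 and 162 CPM, a log2 ratio of -0.17. The sign of this ratio rested on single cells, since cell 18 held 20.1% of the DiD+ counts and cell 32 held 19.1% of the DiD- counts. The ratio was -0.44 without cell 18 and 0.07 without cell 32.

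**Figure D2:**
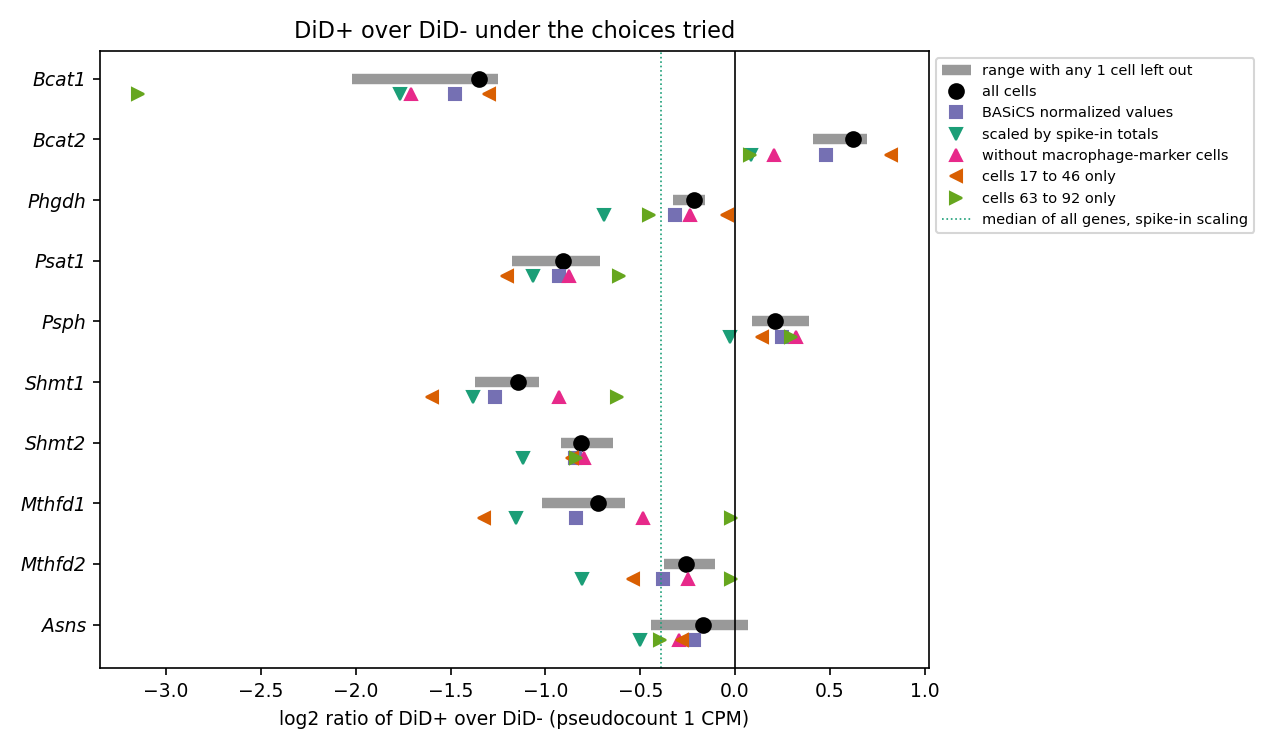
Log2 ratio of DiD+ over DiD- for each gene (horizontal axis, 1 added to both values, with BASiCS and spike-in scaled values first brought to the CPM scale), with all cells as black dots, the grey bar spanning the ratios with any 1 cell left out, and colored marks for other scalings and subsets of cells. Bcat1, Psat1, Shmt1 and Shmt2 stayed below 0 in every setting shown, Mthfd1 and Mthfd2 were at -0.02 in cells 63 to 92, and only the bar of Asns and the spike-in mark of Psph crossed 0.

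The scaling of the cells mattered for the size of these ratios. DiD+ cells had more spike-in reads, with a median of 1.88% of counts against 1.51%, and scaling each cell by its spike-in total moved the median of all genes to -0.39. On that scale Bcat1 stood at -1.77 and Shmt1 at -1.38, the median of the 10 genes was -0.94, and Psph changed sign (-0.02). Relative to the median of all genes, Bcat1 was at -1.38 and the median of the 10 genes at -0.55.

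A few cells were high for several of the enzymes. In DiD+ cells between 3 and 10 of the 10 genes had counts (median 8, all 10 in 6 cells), and in DiD- cells between 5 and 10 (median 9, all 10 in 13 cells). The summed level of the 10 genes ranged from 382.1 to 4183.9 CPM with a median of 1284 in DiD+ cells and from 1030 to 4616.0 CPM with a median of 1853 in DiD- cells. The highest cells, 18 and 32, were among the top 3 of their group for 5 and 6 of the genes. Cell 18 led its group for Bcat1, Psat1, Psph, Shmt2 and Asns, and cell 32 led its group for Psat1, Psph, Shmt2, Mthfd2 and Asns. Without both cells, a choice made after seeing the data, Bcat1 stood at -1.92 and Psat1 at -0.98.

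**Figure D3:**
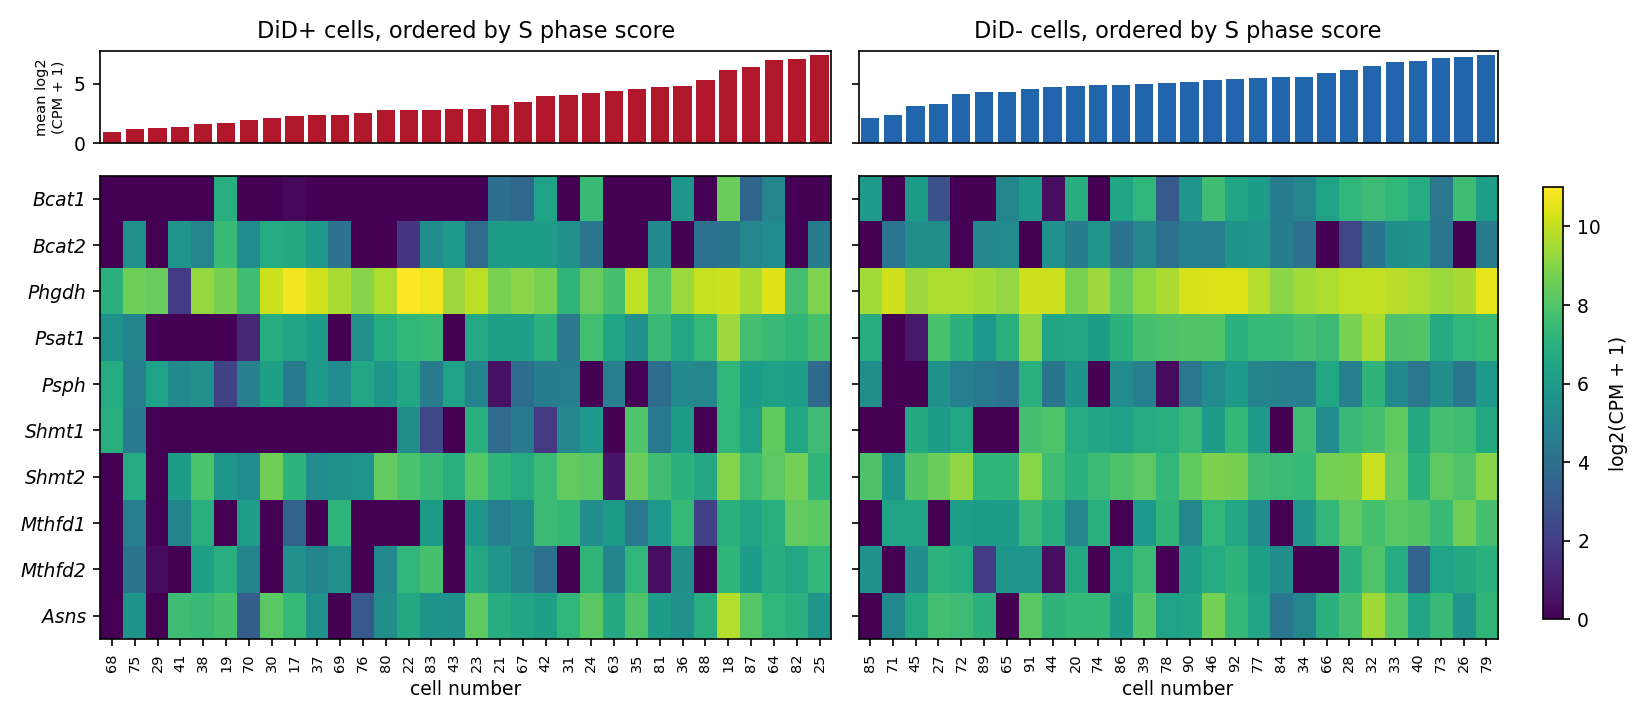
Level of the 10 genes as color, log2(CPM + 1), in each DiD+ cell (left) and DiD- cell (right), with cells ordered by the S phase score drawn as bars above, the mean log2(CPM + 1) of the S phase genes. Phgdh is bright in nearly every cell, whereas Bcat1 and Shmt1 are at 0 in many DiD+ cells. For Shmt1 these are mostly on the left, with low scores. For Bcat1 they lie on both sides and include cells 25 and 82, which have the highest scores of the DiD+ cells.

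Spearman's rho between the cells' CPM was computed within each group for all 45 pairs of the 10 genes, as a description. Cells of a group share the sort and the library preparation, and their depth and number of detected genes differ. The median rho was 0.27 over 32 DiD+ cells (-0.34 to 0.63, 31 pairs above 0) and 0.35 over 28 DiD- cells (-0.27 to 0.68, 39 pairs above 0). Shmt2 and Asns were the most alike pair in both groups, with rho of 0.63 and 0.68. Bcat2 stood apart, with rho at or below 0.09 in both groups for every gene but Bcat1 (0.32 in DiD+, -0.07 in DiD-) and Asns (0.27 and 0.08).

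The pairs of Psph had unlike values in the 2 groups. Its rho was -0.03 with Shmt2, -0.28 with Mthfd2 and -0.21 with Asns in DiD+ cells, and 0.61, 0.55 and 0.50 in DiD- cells. Bcat1 had a rho of 0.32 in DiD+ and 0.51 in DiD- cells with Psat1. With Mthfd2 its rho was 0.33 and 0.58, and with Asns 0.38 and 0.33. Whether any rho differed between the groups was not tested.

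**Figure D4:**
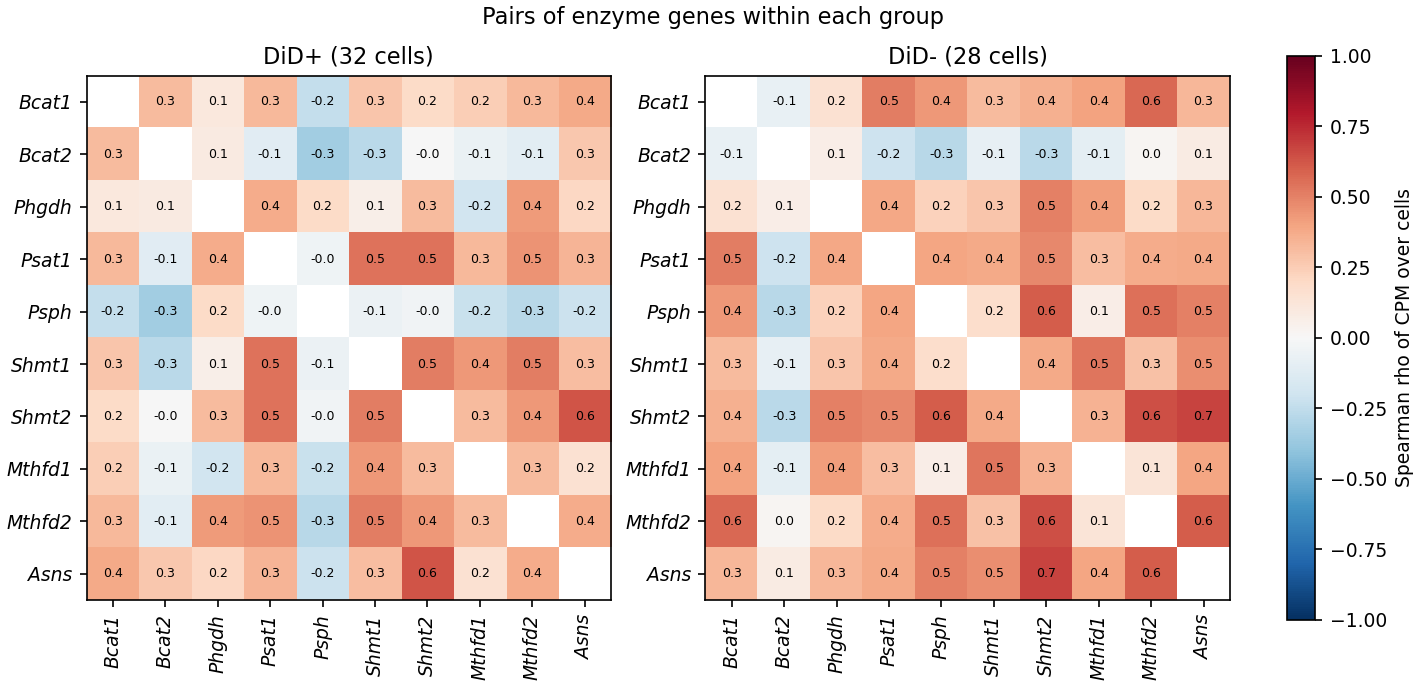
Spearman rho of CPM over cells for each pair of the 10 genes, in 32 DiD+ cells (left) and 28 DiD- cells (right), with red above 0 and blue below 0. The Bcat2 row is pale or blue in both panels, and the Psph row is blue in the left and red in the right panel for Shmt2, Mthfd2 and Asns.

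The 10 genes were then set beside scores of gene lists in the same cells, each the mean log2(CPM + 1) over the list. The median S phase score was 2.89 among DiD+ cells (0.996 to 7.414) against 5.11 among DiD- cells (2.165 to 7.395). The groups thus overlapped, and the highest score of all was in DiD+ cell 25. The genes most closely related to the S phase score were Psat1 (rho 0.71 in DiD+ and 0.49 in DiD- cells), Mthfd1 (0.59 and 0.60) and Shmt1 (0.59 and 0.45). Shmt2 (0.51 and 0.24) and Bcat1 (0.31 and 0.54) followed. Mthfd2 (0.38 and 0.27) and Asns (0.31 and 0.15) came next. Phgdh (0.16 and 0.20) and Bcat2 (-0.21 and -0.04) showed little relation, and Psph had unlike signs in the 2 groups (-0.18 and 0.29). By the mean of both groups, the 5 genes with the lowest ratios were the 5 most closely related to the S phase score. This split held in neither group alone. Mthfd2 was above Bcat1 in DiD+ cells, and Psph and Mthfd2 were above Shmt2 in DiD- cells. The part of cell cycle position in the ratios of these genes was not tested.

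The score of the 20 cytosolic aminoacyl-tRNA synthetases, which charge tRNAs with amino acids, had medians of 6.67 and 7.29. It was related to Psat1 (0.51 and 0.69), Shmt2 (0.38 and 0.66) and Asns (0.30 and 0.68) and, in DiD+ cells, to Mthfd1 (0.70). The score of the ATF4 target list, which includes Atf4 itself, was close in both groups (medians 3.22 and 3.27). The enzyme genes were at most weakly related to that score, with the highest rho at 0.40 for Bcat1 in DiD+ cells. Its list holds neither the 10 genes nor the synthetases, and some of its genes, such as Vldlr and Stc2, were at or near 0 CPM. The score thus covers only part of the ATF4 targets. Cells 18 and 32 ranked 4 of 32 and 19 of 28 on that score. Macrophage markers had a rho between -0.37 (Mthfd1) and 0.36 (Bcat2) with the 10 genes in DiD+ cells.

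Among 7544 genes with counts in at least 30 cells, those most like each enzyme over the cells of both groups, by the mean of the within-group rho, were named where that mean was 0.5 or more. Beside Shmt1 stood the DNA replication helicase subunits Mcm2 (mean rho 0.67) and Mcm3 (0.63) and the aminoacylase Acy1 (0.66). Beside Mthfd1 stood Ccne2 (0.66), a cyclin of S phase entry, and the DNA polymerase and ligase Pold1 (0.64) and Lig1 (0.64). Beside Psat1 stood the clamp loader subunit Rfc4 (0.60), the valyl-tRNA synthetase Vars (0.60) and the splicing factor Sf1 (0.58), and beside Bcat1 the flap endonuclease Fen1 (0.52). Fen1, Mcm2, Mcm3 and Ccne2 are also in the S phase list.

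The mitochondrial and asparagine enzymes had other neighbors. Shmt2 was most like Asns (0.66), the citrate cycle enzyme subunit Idh3a (0.65) and the ATP/ADP carrier Slc25a5 (0.63). Asns was most like Ybx3 (0.67), the mitochondrial import pore Tomm40 (0.67) and the spermidine synthase Srm (0.66). Mthfd2 was most like Ltv1 (0.55), Shmt2 (0.54) and Fabp5 (0.54), Phgdh like the secreted protease Htra1 (0.58) and Psph like Traf4 (0.54). The feature most like Bcat2 was the one with which it shares reads (0.81). For comparison, the median of that mean rho over all 7544 genes lay between -0.01 and 0.05, depending on the enzyme.

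The connected pathways were described by lists without the 10 genes, over list genes that reached 1 CPM in either group. Of all 12432 genes at that level, 46.7% were lower and 53.3% higher in DiD+ cells, 4.86% had a log2 ratio of -1 or lower, 12.1% had 1 or higher, and the median was 0.04. In purine synthesis, which takes up one-carbon units, all 13 genes were lower in DiD+ cells (median log2 ratio -0.29). The lowest was Gart, an enzyme of the pathway that uses formyl-folate, at 112 CPM in DiD+ against 220.3 CPM in DiD- cells (-0.96). All 20 cytosolic aminoacyl-tRNA synthetases were also lower, with a median of -0.44, from Qars (-0.09) to Tars (-0.82) and Lars (-0.86).

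The folate lists were mixed. In the mitochondrial folate and glycine cleavage list 6 of 8 genes were lower, with a median of -0.12, led by Mthfd1l, which releases formate from folate (28.6 and 59.2 CPM, -1.03). In the cytosolic folate, methionine and transsulfuration list 7 of 16 were lower and the median was 0.32. Its lowest gene was Fpgs, which adds the glutamate tail that keeps folate in the cell, at 23.6 CPM in DiD+ (14 of 32 cells) and 81.8 CPM in DiD- cells (24 of 28), a ratio of -1.75. Thymidylate synthase Tyms had 122 and 177 CPM (-0.53). The glycine cleavage gene Gldc and the transsulfuration gene Cbs were at 0 in both groups, at or under the limits of 0.0205 and 0.0251 CPM.

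**Figure D5:**
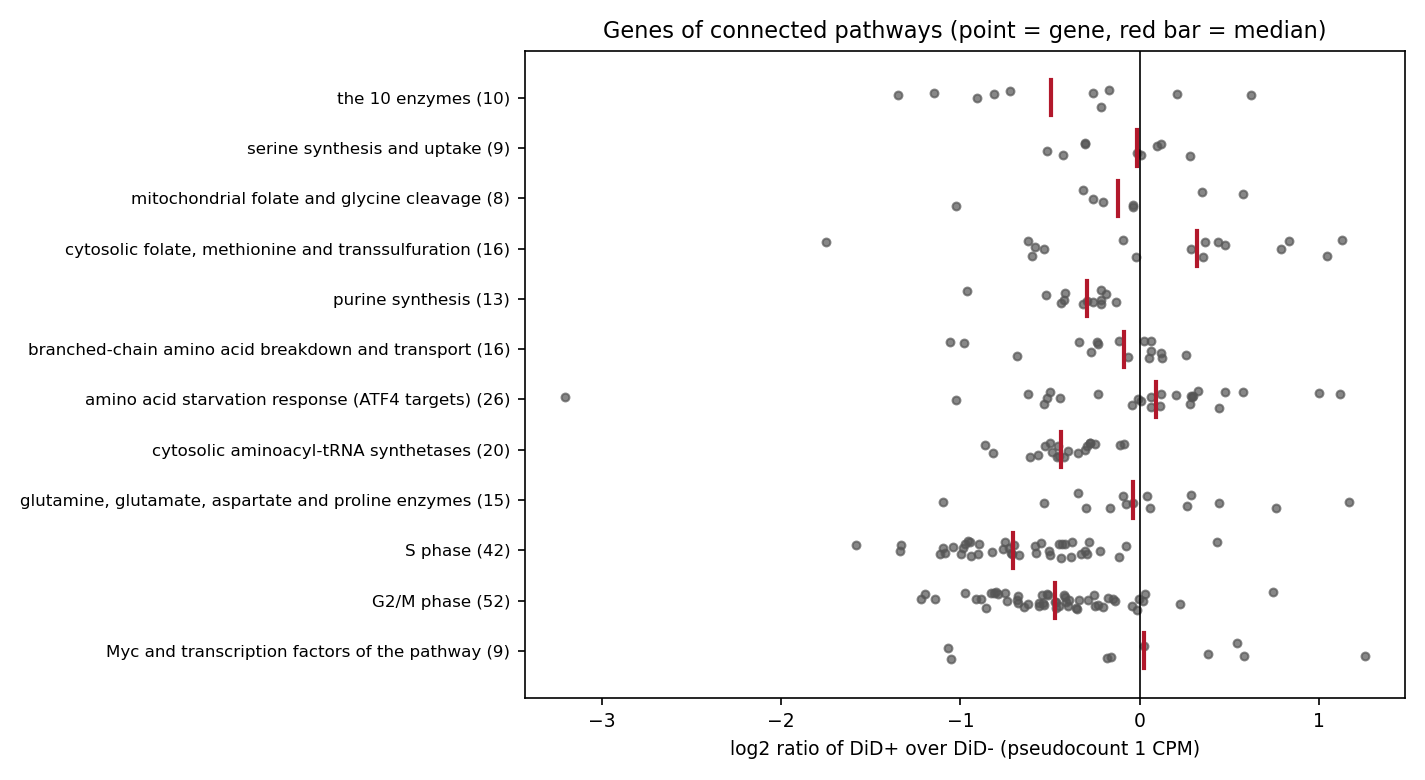
Log2 ratio of DiD+ over DiD- (horizontal axis, 1 CPM added) for each gene of the connected pathways as grey points, with the number of genes in parentheses and the median of each list as a red bar. All purine synthesis and aminoacyl-tRNA synthetase points lie left of 0, and the points of the ATF4 target list spread to both sides with Chac1 far to the left.

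Of the serine synthesis and uptake list, which holds enzymes as well as transporters, 5 of 9 genes were lower. The median was -0.01, the ratio of the low-count gene Sdsl (4.32 and 4.37 CPM), and it was -0.28 without DiD+ cell 76. The neutral amino acid transporter Slc1a5 had 87.7 and 126 CPM (-0.52), and Slc38a2 had 160 and 159 CPM (0.01). In the branched-chain amino acid breakdown and transport list, 9 of 16 genes were lower with a median of -0.09. Mccc2, a subunit of the leucine pathway's methylcrotonyl-CoA carboxylase, had 11.1 and 24.2 CPM (-1.06). The glutamine, glutamate, aspartate and proline list had 8 of 15 genes lower and a median of -0.04.

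Among the 26 genes of the ATF4 target list, which includes Atf4, 10 were lower and the median was 0.09. Atf4 itself had 225 and 226 CPM of RNA (-0.01), and its protein was not measured. Chac1, a glutathione-degrading enzyme, had 2.14 and 28.0 CPM (-3.21), but 73.5% of its DiD- counts were in cell 28 and 84.9% of its DiD+ counts in cell 81, so its ratio compares few cells. Cebpb, a transcription factor of the same response, was higher in DiD+ cells, at 259 and 119 CPM (1.12). Myc and 8 other transcription factors of the pathway had a median of 0.03, with E2f1, a driver of S phase genes, at 37.9 and 80.7 CPM (-1.07) and the Myc antagonist Mxd4 at 37.7 and 15.2 CPM (1.26), while Myc had 101 and 66.8 CPM (0.58).

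The cell cycle lists were lower in DiD+ cells for nearly all genes, 41 of 42 for S phase (median -0.70) and 48 of 52 for G2/M phase (median -0.47). Among the lowest S phase genes were Mcm3 (98.9 and 298 CPM, -1.58), Uhrf1 (48.9 and 125 CPM, -1.34) and Rrm1, a subunit of the enzyme that makes deoxynucleotides (207 and 450 CPM, -1.11). Among G2/M genes Top2a had 138 and 322 CPM (-1.22), Bub1 48.6 and 113 CPM (-1.20) and Aurkb 102 and 225 CPM (-1.14). Bcat1, Shmt1, Psat1 and Shmt2 had ratios below the medians of both lists, and Mthfd2, Phgdh, Asns, Psph and Bcat2 above them. These medians moved with single cells. With any 1 cell left out, the S phase median ranged from -0.927 (without cell 82) to -0.565 (without cell 32). The G2/M median ranged from -0.755 (without cell 67) to -0.373 (without cell 65). Without cell 82, Shmt2 (-0.916) was no longer below the S phase median. Mthfd1 (-0.72) was below the G2/M median but level with the S phase median within counting error (-0.76 to -0.69). In cells 63 to 92 its ratio was -0.02.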

How the data were processed

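The 60 single cells were grouped by the DiD intensity in their labels. Per the labels and the methods, reads were aligned with STAR to GRCm38 with spike-ins and transgenes added, and the deposited main table holds estimated counts from RSEM, 1 value per gene and cell, not normalized by the authors. Of these values 96.6% were exactly whole (tolerance 0, zeros included), and all were rounded. A further deposited table holds the authors' BASiCS-normalized signal, which served only as an alternative scaling. Spike-ins (92) and transgenes (4) stayed out of the totals. No column was left out (0 unused). Wells that may hold more than 1 cell were not removed.

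Counts were summed per group, scaled to CPM, and compared as log2 ratios with a pseudocount of 1 CPM. A group is 1 sample, so no p-value or standard error was computed. Intervals are exact Poisson for counts and Clopper-Pearson for shares of cells, at 95%. The first cover counting error only, and the second the sampling of cells as if independent. The limit for 0 counts is 3 counts over a group.

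The 10 genes and all lists were chosen with earlier results of these data known. The rule named all 10 genes, list genes that reached 10 CPM in either group with a log2 ratio of at least 1 in size, up to 4 a list, and the 3 genes most like a member where the mean rho was 0.5 or more. Gart, Lars, Tars, Qars, Tyms, Slc1a5, Slc38a2, Atf4, Myc, Gldc and Cbs were named after their values were seen. One list gene that the rule names is not reported here. A macrophage-marker cell has at least 7 of 13 markers at 10 counts or more. Positions are from GENCODE M21 and promoters from RefSeq. Gene symbols were found for 47224 of 47729 genes. Of the alternatives, edgeR 4.0.16 and DESeq2 1.42.0 (R 4.3.3) gave scaling factors only. The other steps used Python 3.11.15 (pandas 2.3.3, numpy 2.4.6; matplotlib 3.10.9 for figures; scipy 1.17.1 for intervals) and were tested on simulated counts. Protein sequences were not used here.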

Additional observations from a re-analysis of the deposited data

How the results depend on the processing

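Bcat1 was lower in DiD+ cells under all alternatives tried. Its log2 ratio was -1.35 as reported, -1.47 with BASiCS values, -1.77 scaled by spike-ins, -1.13 with a pseudocount of 10 CPM, -1.71 without macrophage-marker cells, -3.15 in cells 63 to 92 and -1.92 without cells 18 and 32, which was chosen after seeing the data. The median of the 10 genes (-0.49) was -0.54 as the mean of the cells' CPM, -0.61 with BASiCS values, -0.94 scaled by spike-ins, -0.45 with 10 CPM added, -0.39 without macrophage-marker cells, -0.70 in cells 17 to 46 and -0.42 in cells 63 to 92. The number of genes at -1 or lower (2, beside 3.18% of all genes) was 5 scaled by spike-ins (8.18% of all genes), 4 in cells 17 to 46 (7.45%), and 1 without macrophage-marker cells (3.39%) or in cells 63 to 92 (5.15%). With any 1 cell left out, Bcat1 ranged from -2.02 (without cell 18) to -1.25 (without cell 26), the median from -0.60 to -0.41, the number of lower genes from 7 (without cell 32) to 8, and the number at -1 or lower from 2 to 3 (without cell 18). The number of lower genes was 9 with spike-in scaling, where 79.7% of all genes were lower, and 8 under every other scaling, pseudocount and subset. edgeR and DESeq2 factors and a pseudocount of 0.1 CPM moved none of these by more than counting error. The signs of the small medians of the serine synthesis and uptake, glutamine and Myc lists turned in 17, 3 and 16 of the 60 fits with 1 cell left out. The causes of these shifts were not tested. Depth limits genes near 0.0251 CPM. No paired analysis was possible because the labels give the cells running numbers that the groups do not share.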
